A study of Sus scrofa with 26 samples.

Results

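Myelin basic protein (MBP) and 8 other genes of peripheral myelin and Schwann cells were followed in the subcutaneous adipose tissue (SCAT) of pigs. A probe was a member when its gene symbol in the array files, or the gene named by its accession or description, was MBP, PMP22, PMP2, MAL, MAG, CNP, S100B, SOX10 or ERBB3. These are 9 of the 11790 genes named on the array, read by 22 of its 60305 probes, namely 10 for MBP, 3 for PMP2, 2 each for S100B and SOX10, and 1 for each of the other genes. The genes were chosen by their measured HS minus TN differences on these same arrays (heat stress, HS, against thermoneutrality, TN), so this difference is described without a test. Breed effects, the interaction of breed and temperature, and the covariation of pigs within a group did not enter the choice and were tested.

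RNA from SCAT of 26 growing castrated male pigs was measured on 26 one-colour arrays, with 1 pig per array. The pigs were Creole, Large White (LW) or the cross of both breeds (F1). The TN groups (24 °C per the labels) comprised 3 pigs for Creole, 4 for F1 and 4 for LW, and each HS group comprised 5. The labels give HS as 30 °C, and the series text gives 32 °C for 5 days. TN pigs were slaughtered before the temperature was raised, so temperature, day and age at slaughter cannot be told apart. Some pigs were littermates or shared a pen, which the labels do not identify, so p-values measure the spread between these pigs, which may not be fully independent. In whole tissue, fewer cells of a type and less RNA per cell cannot be told apart.

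Peripheral myelin is the membrane that Schwann cells wrap around large axons. MBP, PMP22 and PMP2 are proteins of compact myelin, MAL is a membrane proteolipid, and MAG and CNP lie in the uncompacted parts of the sheath. SOX10 is the transcription factor of the Schwann cell lineage, ERBB3 is a receptor for axonal neuregulin, and S100B is a calcium-binding protein of Schwann cells that adipocytes also produce. Nerves enter adipose tissue along its vessels and carry both myelinated and unmyelinated fibres.

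Each probe is 60 bases long. The following stretches were taken from the array files because the results differ between probes of the same gene. For some probes only a stretch of 30 bases is shown, with its place in the probe. Capitals mark AATAAA, the sequence of the common polyadenylation signal.

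MBP A_72_P721178, start 303 of the pig MBP transcript: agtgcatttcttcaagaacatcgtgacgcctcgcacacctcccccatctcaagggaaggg

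MBP A_72_P795270, start 1237, bases 1 to 30: cgtgctcagcggcggtgctcacggcaaata

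MBP A_72_P749244, start 1466, bases 1 to 30: gccttttgattttagcgtctctttcttttc

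MBP A_72_P065001, start 1790, bases 31 to 60: gaagttgaAATAAAATAAAcactgttaatg

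MBP O7038, no start given: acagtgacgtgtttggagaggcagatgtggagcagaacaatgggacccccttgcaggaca

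PMP2 A_72_P586436, start 524, bases 1 to 30: gcagtttgtttgcttttgtcttaatagatt

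PMP22 A_72_P098851, bases 1 to 30: gggggtcgtgagtgttgactgaagatgtat

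S100B A_72_P215692, bases 31 to 60: tcgcttgtatttgcattaAATAAAaagcat

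SOX10 O7569, bases 31 to 60: cagtggtatttgAATAAAgtatgtagctct

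The start is the position on the transcript given by the array files. The files name no genome build, so no genome position is given. The letters AATAAA occurred as printed in 7 of the 22 member probes (31.8%) and in 10.3% of all 60305 probes. On the other strand they occurred in 1 member probe (4.5%) and in 4.3% of all probes. Among the 7 probes were 3 for MBP (A_72_P065001, A_72_P740675 and A_72_P092501) that share most of their bases, and 1 each for CNP, ERBB3, S100B and SOX10. A_72_P740675 and A_72_P065001 share 55 bases in 2 blocks separated by a gap. Which strand of the transcript a probe reads was not checked.

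All 22 member probes passed the filter on dim probes, which asked for a signal well above background on at least 8 arrays and left 44703 probes for the tests. Of the member probes, 19 were well above background on all 26 arrays, PMP2 A_72_P473847 on 25, SOX10 A_72_P175846 on 22 and S100B O1711 on 9. Between 41313 and 46184 probes per array were well above background and no spot was saturated. Both temperatures were present on each of the 5 slides, which held 4 to 7 arrays each. The breeds were not balanced over temperatures within a slide, so differences between temperatures given by slide also carry differences between breeds. Correlations across probes were from 0.974 to 0.993 between arrays of a group and from 0.972 to 0.992 between groups. The values below are log2 intensities, or differences between them, and the number of arrays limits their precision.

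MBP had the largest difference between temperatures among the members. Its brightest probe, A_72_P065001, was higher in HS by 1.13 ± 0.19 (SE) on the log2 scale after adjustment for breed, which is 2.20-fold. In Creole pigs the level was 10.83, 11.14 and 10.68 in TN and 11.77, 11.88, 11.68, 11.59 and 11.86 in HS. In F1 pigs it was 10.82, 10.45, 10.76 and 11.87 in TN and 10.94, 11.94, 11.29, 12.28 and 12.67 in HS. In LW pigs it was 11.76, 10.72, 11.24 and 10.58 in TN and 12.53, 12.43, 12.82, 12.48 and 13.32 in HS. The TN and HS pigs did not overlap in Creole and in LW, where the lowest HS pig lay above the highest TN pig by 0.44 and 0.67. They overlapped in F1, where TN replicate 4 read higher than HS replicates 1 and 3. Of the 15 HS pigs, 14 lay above the TN mean of their own breed and 9 lay above every TN pig. The difference was positive on each of the 5 slides, from 0.73 to 1.64.

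By mean level of this probe, the groups ranked LW HS (12.72 ± 0.37, SD, n = 5), F1 HS (11.83 ± 0.71, SD, n = 5), Creole HS (11.76 ± 0.12, SD, n = 5), LW TN (11.07 ± 0.54, SD, n = 4), F1 TN (10.98 ± 0.62, SD, n = 4) and Creole TN (10.88 ± 0.24, SD, n = 3). The values of every pair of neighbours in this order overlapped. The gaps were 0.89 between LW HS and F1 HS and 0.68 between Creole HS and LW TN, and the others were 0.10 or less. The Creole HS pigs were the most alike, and the F1 groups and LW TN were the most spread.

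The 10 MBP probes did not give the same difference between temperatures. The 7 probes with starts from 1237 to 1790, together with A_72_P092501, which has no start but shares 55 bases with A_72_P065001, were higher in HS by 0.94 to 1.15. Within breeds these 8 probes differed by 0.76 to 0.88 in Creole, 0.64 to 0.89 in F1 and 1.27 to 1.66 in LW. The probe at start 303, A_72_P721178, was higher in HS by 0.22 ± 0.08 (SE), and its HS and TN pigs overlapped in every breed. It ranged from 7.28 to 7.77 in TN and from 7.18 to 8.11 in HS, with medians of 7.38 and 7.63. O7038 differed by 0.03 ± 0.05 (SE), with a range from 6.88 to 7.15 in TN and from 6.89 to 7.28 in HS. Its annotation cites a RefSeq transcript other than the pig entry to which the 9 other MBP probes belong. The MBP gene is known to give transcripts with different starts and exons, and which of them each probe detects was not tested. A_72_P721178 and O7038 were also the dimmest of the 10 probes. The next, A_72_P749244, had means of 8.47 in TN and 9.40 in HS. Background was not subtracted from these intensities, and whether low signal made the differences of the dimmest probes smaller was not tested.

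**Figure D1:**
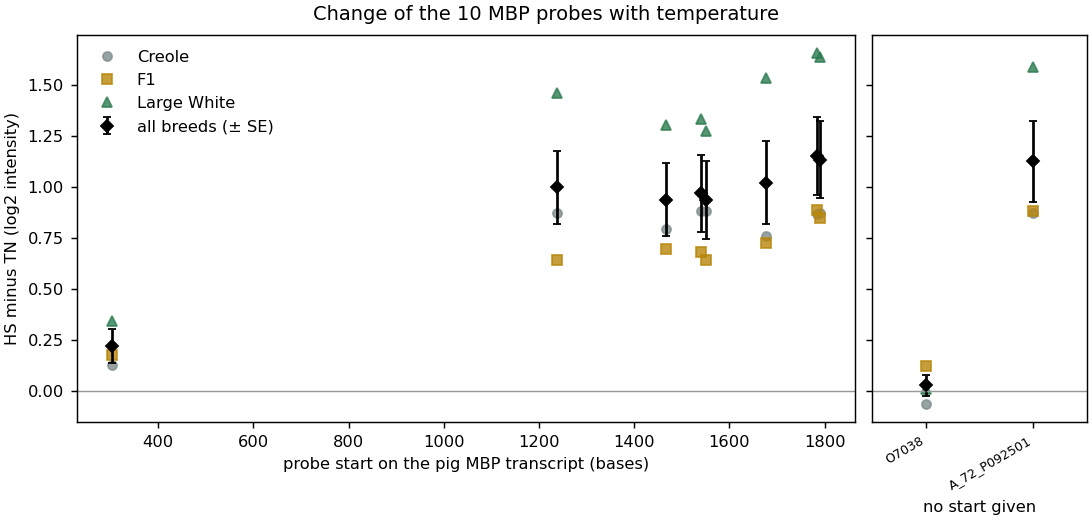
Difference between HS and TN (log2 intensity, vertical axis) of the 10 MBP probes against their start on the pig transcript (horizontal axis, bases). Probes with no start are on the right. Black diamonds are the breed-adjusted difference ± SE, and the other symbols are the difference within each breed. The 8 probes toward the end of the transcript lie between 0.94 and 1.15, the probe at start 303 at 0.22 and O7038 at 0.03.

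The agreement of the MBP probes among pigs of the same group followed the same division. After the mean of each of the 6 groups was subtracted, the 28 pairs among the 8 probes correlated with r from 0.953 to 0.997 over 26 arrays. The probe at start 303 correlated with them from 0.816 to 0.855. O7038 correlated with them from -0.447 to -0.272. These correlations describe probes on shared arrays, and some of the probes share bases.

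The other proteins of compact myelin were also higher in HS. PMP2, a fatty acid-binding protein of the myelin membrane, was read by 3 probes, which differed by 0.60 to 0.68. Of these, A_72_P473847 and A_72_P629371 share 55 bases in 2 blocks. A_72_P586436 was 6.37, 6.31 and 6.32 in Creole TN pigs and 6.83, 6.67, 6.998, 7.05 and 7.29 in Creole HS pigs. It was 6.39, 6.09, 6.11 and 6.93 in F1 TN pigs and 6.11, 6.68, 6.44, 7.27 and 7.51 in F1 HS pigs. It was 6.77, 6.22, 6.79 and 6.30 in LW TN pigs and 7.51, 7.28, 7.49, 7.27 and 7.93 in LW HS pigs. As for MBP, the temperatures did not overlap in Creole and LW and overlapped in F1. The difference was 0.68 ± 0.14 (SE), with 14 of 15 HS pigs above the TN mean of their breed. It became 1.09 with background-subtracted intensities scaled to the 75th percentile and 0.55 with the normexp background correction.

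PMP22, a membrane protein of compact myelin that fibroblasts and other cells also express, was higher in HS on every slide. A_72_P098851 ranged from 9.06 to 9.84 in TN, with a median of 9.20, and from 9.36 to 10.16 in HS, with a median of 9.63. Each of the 15 HS pigs lay above the TN mean of its own breed, and 8 of the 11 TN pigs lay below every HS pig. The difference was 0.40 ± 0.07 (SE), with 0.43, 0.32 and 0.47 in Creole, F1 and LW, and from 0.37 to 0.50 on the 5 slides. Only the Creole pigs did not overlap between temperatures.

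MAL was higher in HS by 0.39 ± 0.10 (SE). Its probe ranged from 7.88 to 8.61 in TN and from 8.10 to 9.18 in HS, and 13 of 15 HS pigs lay above the TN mean of their breed. The difference was 0.65 in LW, where the temperatures did not overlap, against 0.21 in Creole and 0.27 in F1, where they did. CNP, an enzyme of non-compact myelin, differed by 0.05 ± 0.08 (SE), and 8 of 15 HS pigs lay above the TN mean of their breed. Its difference was 0.33 in F1, where the temperatures were separated by a gap of 0.01, and -0.06 in Creole and -0.14 in LW, where they overlapped.

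MAG, an adhesion protein on the inner face of the sheath, differed by 0.05 ± 0.11 (SE) over all breeds. Its level was 6.95, 6.69 and 7.33 in Creole TN pigs and 6.52, 6.65, 6.59, 6.66 and 6.30 in Creole HS pigs. The Creole TN pigs were thus above all Creole HS pigs. In F1 the level was 6.26, 6.02, 6.04 and 6.17 in TN and 5.97, 6.29, 6.09, 6.41 and 6.88 in HS. In LW it was 6.55, 5.97, 6.47 and 6.25 in TN and 6.45, 6.56, 6.62, 6.70 and 6.82 in HS. The temperatures overlapped in F1 and LW, and the differences were -0.45 (Creole), 0.21 (F1) and 0.32 (LW).

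S100B, SOX10 and ERBB3 are genes of the Schwann cell rather than of its myelin. S100B A_72_P215692 was 12.31, 12.92 and 11.59 in Creole TN pigs and 12.91, 11.78, 12.75, 12.35 and 13.13 in Creole HS pigs. It was 11.56, 11.58, 12.76 and 12.54 in F1 TN pigs and 12.26, 12.62, 12.19, 12.07 and 12.42 in F1 HS pigs. In LW pigs it was 12.43, 11.56, 11.79 and 12.42 in TN and 12.30, 13.01, 12.22 and 13.01 in HS, where the spot of replicate 5 was dropped as non-uniform. The temperatures overlapped in every breed. The difference was 0.36 ± 0.18 (SE), and it ranged from -0.23 to 1.04 over the 5 slides. A probe without a gene name, not counted as a member, shares at least 25 bases with A_72_P215692 and differed by 0.40 ± 0.18 (SE). The other S100B member probe, O1711, was well above background on only 9 arrays and differed by 0.07 ± 0.09 (SE). Under 9 other settings of the processing its difference was from 0.03 to 0.41.

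SOX10 O7569 differed by 0.06 ± 0.06 (SE), with a range from 11.40 to 12.11 in TN and from 11.57 to 12.07 in HS. The difference was 0.26 in F1, where the temperatures were separated by a gap of 0.04, and -0.05 in Creole and -0.04 in LW, where they overlapped. The other SOX10 probe, A_72_P175846, differed by -0.14 ± 0.19 (SE), a value that rested on Creole TN replicate 1. That array read 8.22, whereas the other Creole TN pigs read 5.69 and 5.98, and without it the difference was 0.11. ERBB3 differed by -0.03 ± 0.07 (SE), with a range from 11.29 to 11.88 in TN and from 11.13 to 11.79 in HS. In all, 20 of the 22 member probes were higher in HS, a count that rests on the contrast that chose the members. Over all tested probes 50.7% were higher in HS and 12.2% had an adjusted p under 0.05.

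**Figure D2:**
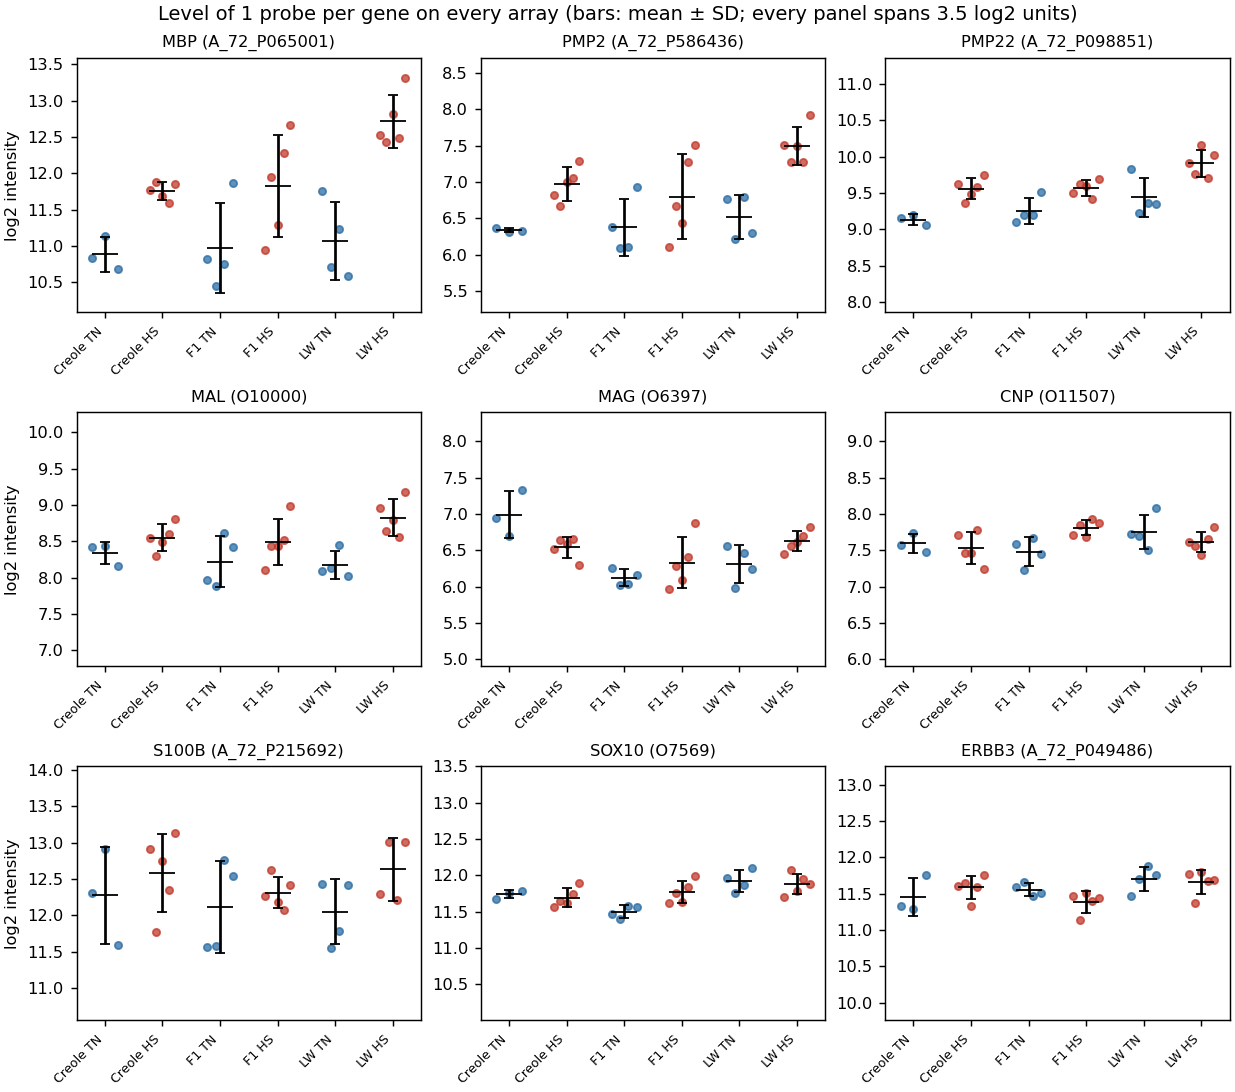
Level (log2 intensity, vertical axis) of the brightest probe of each member on every array, by breed and temperature (horizontal axis). Points are pigs, with TN in blue and HS in red, bars are the mean ± SD, and every panel spans the same range. MBP, PMP2, PMP22, MAL and S100B had a higher mean in HS in each breed, and MAG had its highest mean, 6.99, in Creole TN.

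Breed effects, which the choice of members did not use, were tested with limma and temperature as a fixed effect. PMP22 was higher in LW than in Creole by 0.33 ± 0.083 (SE), with an adjusted p of 0.00965. It was the only member probe of 22 past the threshold in this comparison, in which 14.3% of all tested probes passed (6.89% higher and 7.42% lower in LW). Its level was 9.40 ± 0.25 (SD, n = 8) in Creole, 9.43 ± 0.21 (SD, n = 9) in F1 and 9.70 ± 0.32 (SD, n = 9) in LW. Both breeds were present at the same temperature on slides 2, 3 and 4 only, with 2 or 3 arrays in each such comparison. There LW minus Creole was 0.48 (slide 2, HS), 0.64 (slide 3, TN), 0.49 (slide 4, HS) and 0.17 (slide 4, TN). With the slide as a fixed block the difference was 0.30, with an adjusted p of 0.0283. With the score of the adipocyte markers as a covariate it was 0.29, with an adjusted p of 0.253. In the same comparison 3 of 11 adipocyte markers were lower in LW and 6 of 12 fibroblast markers were higher, with medians of -0.14 and 0.40.

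The 8 MBP probes toward the end of the transcript were higher in LW than in Creole by 0.51 to 0.64, but none passed the threshold (limma, adjusted p from 0.0646 to 0.125). Each of the 8 had an unadjusted p under 0.05, as did 12 of the 22 member probes in all and 29.0% of all tested probes. Leaving out any 1 of 6 arrays raised the count of member probes past the threshold from 1 to between 2 and 5. It was 5 without LW TN replicate 2 and 5 without LW TN replicate 4. It was 4 without F1 HS replicate 1 or F1 TN replicate 4, and 2 without LW HS replicate 1 or Creole HS replicate 5. In the same comparisons within a slide and a temperature, LW minus Creole of A_72_P065001 was 0.60, 0.62, 1.68 and 0.04.

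For any difference between the breeds, 3 of 22 member probes passed, against 11.3% of all tested probes. They were PMP22 (adjusted p = 0.017), SOX10 O7569 (adjusted p = 0.0406) and PMP2 A_72_P629371 (adjusted p = 0.0499). SOX10 O7569 had means of 11.71 ± 0.10 (SD, n = 8) in Creole, 11.65 ± 0.18 (SD, n = 9) in F1 and 11.90 ± 0.14 (SD, n = 9) in LW. The dimmer SOX10 probe, A_72_P175846, had means of 6.13, 5.82 and 5.87 and did not pass (limma, adjusted p = 0.574). Its Creole mean includes the 8.22 of Creole TN replicate 1. Within groups the SOX10 probes correlated with r = -0.221. PMP2 A_72_P629371 had means of 6.29 ± 0.33 (SD, n = 8), 6.13 ± 0.46 (SD, n = 9) and 6.65 ± 0.54 (SD, n = 9). PMP2 A_72_P473847, which shares 55 bases with it, did not pass (limma, adjusted p = 0.279). Neither did PMP2 A_72_P586436 (limma, adjusted p = 0.122). The breeds overlapped for SOX10 O7569 and for PMP2 A_72_P629371. SOX10 O7569 lost its call when any 1 of 16 arrays was left out and PMP2 A_72_P629371 when any 1 of 20 was. With the slide as a block 0 member probes passed, and the share of all tested probes under that setting is not given here. MAG was just above the threshold (adjusted p = 0.0519) and passed under 5 of 10 alternative settings.

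F1 was compared with the mean of LW and Creole. In limma, 0 of 22 member probes passed, against 0.00671% of all tested probes (0.00224% higher and 0.00447% lower), and 4 had an unadjusted p under 0.05, against 8.69% of all tested probes. The largest difference among the representative probes was that of MAG, with -0.36 (limma, adjusted p = 0.299).

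The interaction tested whether the difference between temperatures varied with breed. In limma, 0 of 22 member probes passed, against 0.00224% of all tested probes, and 3 had an unadjusted p under 0.05, against 5.23% of all tested probes. These were MAG (unadjusted p = 0.0054), CNP (0.0271) and SOX10 O7569 (0.0377), and the adjusted p of each was 0.897. For the 8 MBP probes the unadjusted p was from 0.139 to 0.397, so the higher value in LW than in the other breeds did not pass a test of the difference.

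The pigs of a group also varied in MBP, and this variation was used to see which genes went with it. Each probe was fitted on the level of MBP A_72_P065001 with the 6 group means as fixed effects, so that the difference between temperatures does not enter. Of the 12 member probes other than those of MBP, 2 passed the threshold (limma), both for PMP2, against 0.0157% of the 44693 probes tested. PMP2 A_72_P586436 rose by 0.65 ± 0.081 (SE) for each log2 unit of MBP (adjusted p = 0.000393). Its deviations correlated with those of MBP with r = 0.881 and rho = 0.785 (permutation tests within groups, p = 2e-05 and 0.00038, n = 26). PMP2 A_72_P473847 had a slope of 0.64 (adjusted p = 0.0156) and the remaining PMP2 probe, A_72_P629371, a slope of 0.53 (adjusted p = 0.0827).

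Leaving out F1 TN replicate 4 and F1 HS replicate 5, the pigs whose MBP deviation was farthest from the median deviation of the 26, kept the correlation of PMP2 A_72_P586436 at r = 0.825. The adjusted p of its slope was then 0.138, and 0 member probes passed. With the slide as a block PMP2 A_72_P586436 still passed, with a slope of 0.56, and A_72_P473847 did not (0.245). Within slides, r ranged from 0.211 to 0.988.

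MAL, PMP22 and MAG went with MBP more loosely. MAL had r = 0.609 and rho = 0.551 (permutation p = 0.00762 and 0.0125, n = 26), PMP22 had r = 0.588 and rho = 0.523 (permutation p = 0.00428 and 0.011), and MAG had r = 0.587 and rho = 0.552 (permutation p = 0.00997 and 0.0157). None of their slopes passed over all probes (limma, adjusted p = 0.931 for each). Without these 2 pigs r was 0.495, 0.494 and 0.510. The permutations did not take the slide into account, and within slides r ranged from -0.073 to 0.967 for MAL, from -0.297 to 0.757 for PMP22 and from 0.236 to 0.804 for MAG, over as few as 4 arrays. SOX10 O7569 had r = 0.362, S100B r = 0.241 over 25 arrays, CNP r = 0.121 and ERBB3 r = -0.201, with permutation p of 0.128, 0.253, 0.576 and 0.329 and adjusted p of the slope of 0.931 or more. In all 8 genes were set against MBP in this way.

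**Figure D3:**
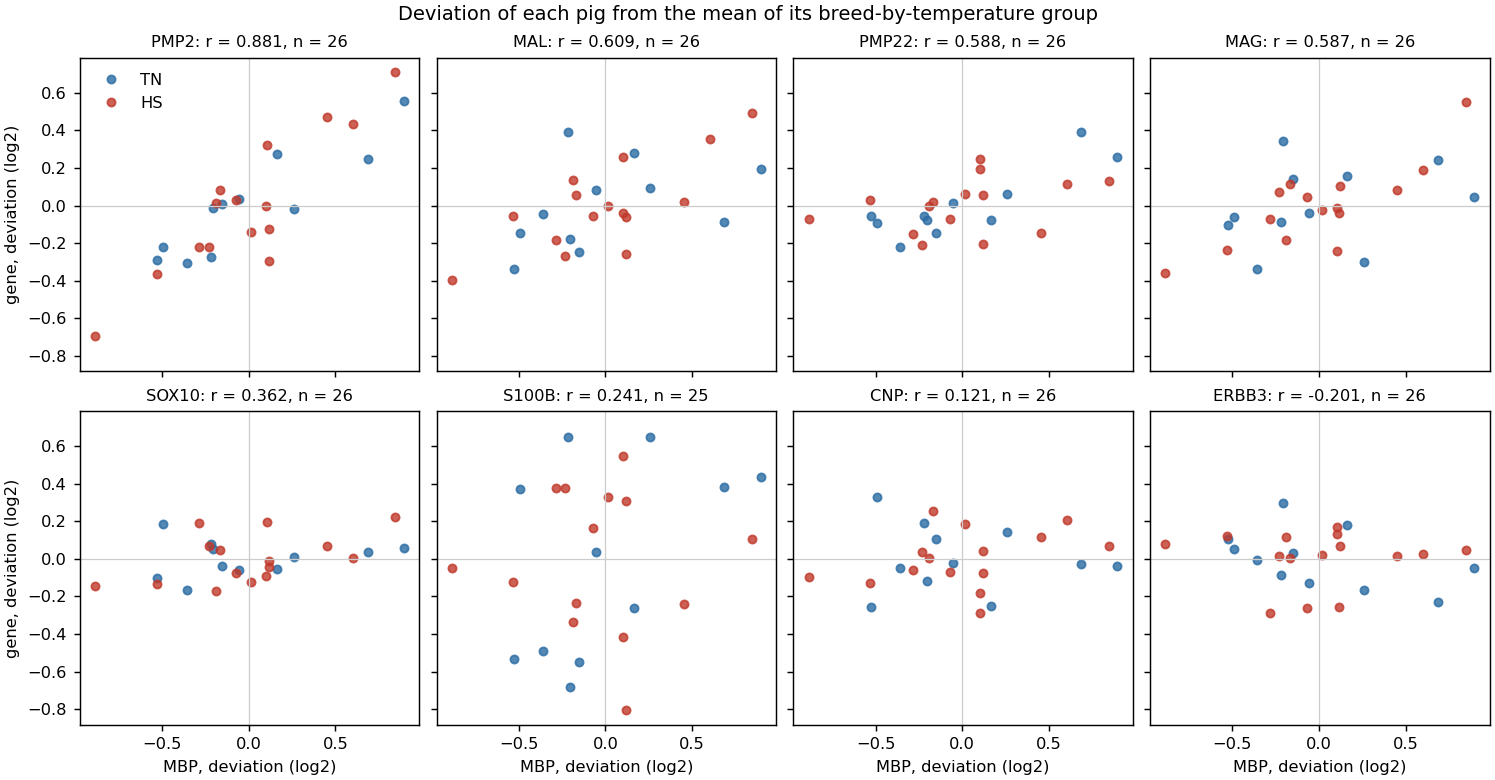
Deviation of each pig from the mean of its breed-by-temperature group (log2 intensity), for MBP A_72_P065001 on the horizontal axis and for another gene on the vertical axis. Points are pigs, with TN in blue and HS in red. The points of PMP2 (r = 0.881) lie close to a line, and those of ERBB3 (r = -0.201) and CNP (r = 0.121) do not.

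Over all probes, 7 passed the threshold for the slope on MBP, all with a positive slope, against an unadjusted p under 0.05 for 2332. Besides the PMP2 probes they included a probe without a gene name that shares 59 of 60 bases with MBP A_72_P065001, so it is not a separate gene. Its identifier holds a RefSeq accession, but no gene was assigned to it. It was therefore counted neither as a member nor as an MBP probe. Its slope was 1.01. Another unnamed probe has an expressed sequence tag as its identifier, a slope of 0.62 and an adjusted p of 0.0433.

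Among the 10146 named genes ranked, with 1 probe each and without the members, the 10 with the highest r to MBP over the 26 arrays were NDFIP1, RGS19, FTCD, YARS, YTHDF2, ARF1, KATNBL1, CELA2A, G3BP2 and ABCD4. Their r ran from 0.682 for NDFIP1 to 0.621 for ABCD4, and none passed the threshold (limma, adjusted p = 0.931 for each). The 5 with the lowest r were GGA3, RALY, NAXE, BICC1 and ARRDC3, from -0.665 to -0.627, and none passed. PMP2 A_72_P586436, with r = 0.881, was thus closer to MBP than any of these genes by this measure.

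The rest of the pathway was read from 5 lists of nerve genes, with 33 of their 66 genes measured. In the list of myelin and Schwann cell differentiation, 2 of 9 measured genes were higher in HS and 0 lower (limma), against 5.17% and 7.02% of all tested probes, and 5 of 9 had an unadjusted p under 0.05, against 26.9%. The lists were chosen with earlier results of these arrays known, so these calls are not independent support. The genes past the threshold were the tetraspanin CD9 (0.56, adjusted p = 0.0034) and FGD4, an exchange factor for a small GTPase (0.33, adjusted p = 0.0106). With the score of the red blood cell markers as a covariate they differed by 0.51 and 0.28, and neither passed (adjusted p = 0.137 and 0.248). The score itself differed by -0.29 (HS minus TN). The share of all tested probes passing with this covariate is not given here, so the lost calls are not a result about these genes. The gap junction protein GJB1 differed by 0.53 (adjusted p = 0.152), and the tight junction protein CLDN19 by 0.16 (adjusted p = 0.181). The median of the 9 genes was 0.16, against 0.00 over all tested probes. EGR2, the transcription factor that switches on myelin genes, differed by -0.14 (adjusted p = 0.323). PRX and 10 other genes of this list were not measured.

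In the other nerve lists 0 genes passed for HS minus TN (limma), and an unadjusted p was under 0.05 for 1 gene of neuregulin signalling, 1 axonal gene and 0 of the others. The 10 measured genes of immature, repair and non-myelinating Schwann cells had a median of 0.07, and the brightest were SOX2 (-0.03), NGFR (0.18), L1CAM (-0.07) and NCAM1 (0.04). The 5 genes of neuregulin signalling had a median of -0.02, with EGFR, PTPN11, NRG4 and ADAM17 at 0.12, -0.02, -0.22 and 0.04. The 7 axonal and neuronal genes had a median of 0.02, with UCHL1 at -0.46 and TUBB3, NEFH and STMN2 at -0.06, 0.09 and 0.17. Of central myelin, ASPA and OPALIN were measured and differed by 0.01 and 0.00. The slope on MBP passed for 0 of the 33 genes (limma), and 3 genes, all of the first list, had an unadjusted p under 0.05. For LW minus Creole, 5 of the 33 nerve genes passed (15.2%), a share near the 14.3% of all tested probes. GAP43 and NCAM1 of the Schwann cell list and EGFR were higher (0.70, 0.35 and 0.51) and NRG4 and UCHL1 were lower (-0.54 and -1.25), with limma adjusted p from 0.0029 to 0.049.

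Markers of other cells moved with temperature as well. Of the 12 fibroblast markers, 6 were higher in HS and 0 lower, with a median of 0.34, and their mean level was from 13.1 to 14.3 in TN and from 13.8 to 14.7 in HS. COL1A1, COL3A1, COL1A2 and DCN, the brightest, were higher by 0.31, 0.25, 0.42 and 0.35 (adjusted p from 0.0218 to 0.0443). The median slope of this list on MBP was -0.02, and its part in the differences of the members between temperatures was not tested. Of the 6 red blood cell markers, 2 were lower in HS, with a median of -0.25 and a mean level from 8.38 to 8.81 in TN and from 7.86 to 8.62 in HS. With their score as a covariate the difference of MBP A_72_P065001 was 1.23, that of PMP2 A_72_P586436 0.84 and that of PMP22 0.40. In that fit 0 of the nerve genes passed in place of 2, and the share of all tested probes is not given here.

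The 7 keratinocyte markers had a median of 0.63, with 0 past the threshold (limma, 0 also by unadjusted p) and a mean level from 6.19 to 9.12 in TN and from 6.01 to 9.91 in HS. KRT14, KRT1 and KRT10 were not measured, and KRT5, SFN and DSP were higher by 1.54, 0.87 and 0.87 (adjusted p from 0.246 to 0.379). With the keratinocyte score as a covariate MBP differed by 1.08 and PMP22 by 0.37. The 11 skeletal muscle markers, ACTA1, MYLPF, CKM and DES among them, had a median of 0.56 with 0 past the threshold (limma, 2 by unadjusted p under 0.05), and a mean level from 9.31 to 12.4 in TN and from 10.2 to 13.9 in HS. The part of muscle in the differences of the members was not tested. In the adipocyte list, which marks the tissue itself, FABP4, ADIPOQ, LIPE and CIDEC were the brightest, 1 of 11 genes (ADIPOQ, 0.16) was higher and the median was -0.06. The median was 0.06 for 4 melanocyte, 0.05 for 9 T cell, 0.16 for 9 macrophage and -0.03 for 8 endothelial markers, of which 1 endothelial gene was lower. None of the others passed (limma), and 1 macrophage marker had an unadjusted p under 0.05.

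**Figure D4:**
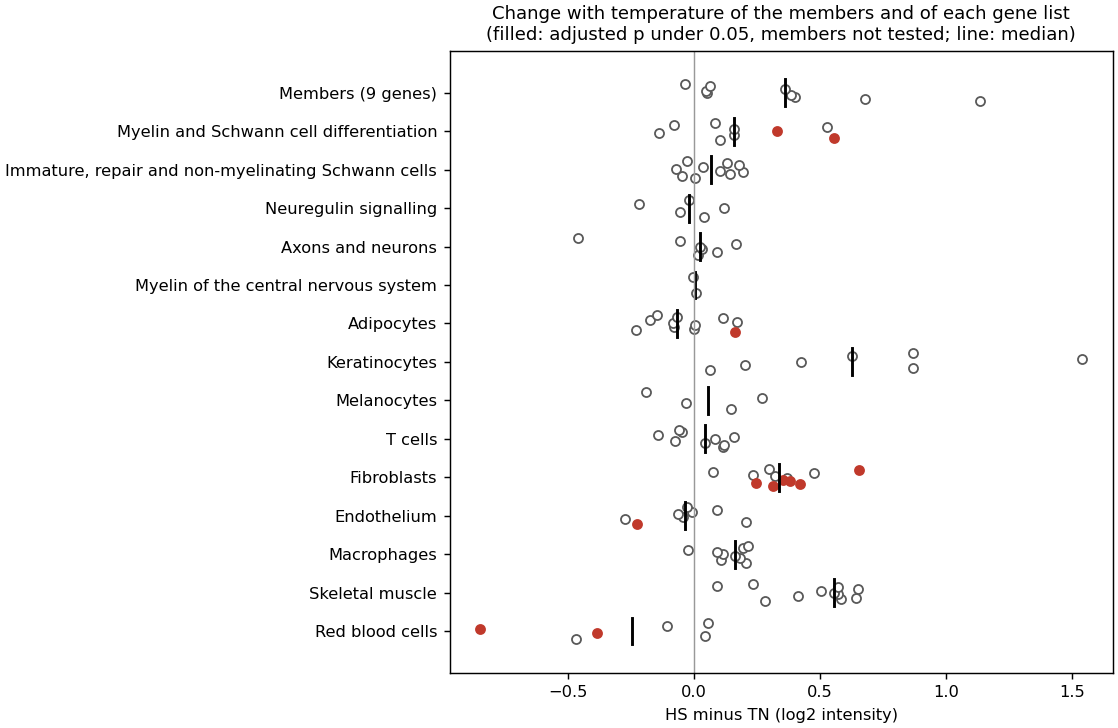
Difference between HS and TN (log2 intensity, horizontal axis) of the brightest probe of each gene, for the 9 members and for each list of nerve genes and cell markers (vertical axis). Filled circles are genes with an adjusted p under 0.05, the members are not tested, and vertical lines are medians. Among the nerve lists filled circles occur only in that of myelin and Schwann cell differentiation, and the fibroblast list has 6.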

How the data were processed

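Per the labels, labelled cRNA of each SCAT sample was hybridised to a porcine Agilent array, and the image was read with Agilent Feature Extraction 10.10.1.1. The authors deposited scanner files in which each spot has a median and a mean intensity, a background intensity, a processed intensity with background subtracted, and flags for spots that were well above background, saturated or non-uniform. The authors also deposited a matrix of quantile-normalized log2 intensities for 44104 probes, which served as an alternative.

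Control and non-uniform spots were left out, and median intensities were quantile-normalized and set to log2 in R 4.3.3 with the package data.table (version 1.17.8). Probes had to be well above background on 8 or more arrays and were fitted with limma 3.58.1 (lmFit, eBayes with trend), with Benjamini-Hochberg adjustment over every tested probe and a threshold of 0.05. The fits were temperature with breed, breed with temperature, 6 group means with their interaction, and 6 group means with the level of MBP. Random effects of pen, slaughter day and parents, which the study's methods include, are not in the labels. Permutations (100000) were made within groups. In data simulated on the 44703 probes, 96% of rises and 90% of falls of 1 log2 unit with temperature were recovered, 74% and 86% of those of 0.5, and 97% and 96% of slopes of 1 and -1. The simulated noise was independent between probes and between arrays, without slide, litter or pen. Slopes between -1 and 1, where those of the members lay, were not simulated.

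Genes were named from the files' annotation and a RefSeq gene table, with 21256 tested probes named for 10157 genes. This table served for names only, and probes were not realigned. Some genes are not reported here and were left out of the lists and the ranking, but not of the fits. The members and the lists of genes were chosen with earlier results of these data known. The text gives all member probes, with the brightest probe standing for a gene, the 10 genes most like MBP and the 5 least like it, and up to 4 genes per list by mean level, or others named for their role or their call after their values were seen. Alternatives were other scalings and background corrections, the series matrix, other filters, the slide as a block, array weights, marker scores as covariates, other MBP probes and leaving out each array.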

Additional observations from a re-analysis of the deposited data

Results flagged for a closer look

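In 4 of the 110 sets of values examined (a member probe in a group of 4 or 5 pigs), 1 pig lay far from the rest of its group, and chance gives about 1 in 20. ERBB3 read 11.13 in F1 HS replicate 2 and 11.37 in LW HS replicate 2, each the lowest of 5 pigs, with the nearest pigs at 11.40 and 11.67. MBP A_72_P749244 read 8.906 in Creole HS replicate 4, below the next Creole HS pig at 9.19. MBP O7038 read 6.988 in LW TN replicate 3, with the nearest pig at 7.13.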

How the results depend on the processing

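No paired analysis was possible because the labels give no replicate numbers shared by the groups. The number of member probes higher in HS (20) was from 18 to 21 under the other settings and from 20 to 21 on leaving out single arrays. No member probe passed for F1 against the mid-parent or for the interaction under any of these settings. For any breed difference, 1 member probe passed with no filter on dim probes and 0 with the slide as a block or with the adipocyte score as a covariate, and from 1 to 6 without single arrays. For LW minus Creole the count was 0 with the adipocyte score and from 1 to 5 without single arrays. For the slope on MBP the number of member probes was 1 with the filter on every array and 1 with the slide as a block. It was 0 with A_72_P721178 or O7038 in place of A_72_P065001, 0 without the 2 pigs whose MBP deviation was farthest from the median deviation, and from 1 to 3 without single arrays, with 1 without F1 TN replicate 2, F1 TN replicate 4 or F1 HS replicate 5. Over all probes this count was 1 with A_72_P721178, 238 with O7038, 4 without the same 2 pigs, and from 5 to 8 without single arrays. On O7038 the slopes turned negative, to -1.21 for PMP2 A_72_P473847 and -1.04 for PMP2 A_72_P586436, neither past the threshold. The number of nerve genes past the threshold for HS minus TN was 0 with the red blood cell score, and from 2 to 3 without single arrays. For the slope it was 1 with O7038 and 0 without any single array. The cause of these shifts was not tested. For the breed and temperature comparisons, the share of all tested probes past the threshold under these settings is not given here. The counts above thus do not tell a change in the members from one over the whole array. The median over all probes moved by less than 0.1 under every scaling.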
